A study of Mus musculus with 8 samples.

Results

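The genes described here are 10 genes of arginine use, chosen by symbol from the 20258 genes that carry a symbol in the deposited table. They are the arginine transporters Slc7a1 and Slc7a2, the arginases Arg1 and Arg2, inducible nitric oxide synthase Nos2, the citrulline-recycling enzymes Ass1 and Asl, and the polyamine genes Odc1, Srm and Sat1. All 10 were in the table with 1 row each, no other row had the same values as any of them, and all 10 were among the 13615 genes tested. Expression was measured in bone-marrow derived macrophages, immune cells grown in culture from marrow precursors of C57BL/6 mice. Cells received LPS, a bacterial cell wall component, plus IFNg, interferon gamma (3 libraries), the cytokine IL4 (3 libraries) or no stimulus (2 libraries), for 24 h. The strain and the cell type were shared by all groups, and no label states that replicates were separate mice or cultures. The p-values therefore reflect just the spread among these libraries, which may be technical. Libraries were made from the 3' ends of polyadenylated RNA, and expression is given on the deposited log2 scale, quantile normalised by the authors, on which a difference of 1 is a doubling.

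Arginine enters macrophages through cationic amino acid transporters and is then contested by competing enzymes. Arginases split it into urea and ornithine, from which polyamines and proline are made, whereas nitric oxide synthase turns it into nitric oxide and citrulline. Citrulline can be rebuilt into arginine by argininosuccinate synthase and argininosuccinate lyase. In mouse macrophages, Arg1 is a textbook marker of activation by IL4 and Nos2 of activation by LPS plus IFNg.

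The groups differed in how many genes were detected. Between 2964 and 3568 of the tested genes were listed at exactly 0 in the stimulated libraries, against 1577 and 2588 in the unstimulated ones. How the authors treated zero counts was not given in the sources used here. The size of a change from a value near 0 is therefore uncertain. All 8 macrophage markers in the table were above 0 in every library. Their summed level was 13.66 to 13.75 (log2) with LPS plus IFNg, 13.20 to 13.78 with IL4 and 14.26 to 14.34 without stimulus. Against no stimulus Fcgr1 differed by -3.48 with IL4 and 2.83 with LPS plus IFNg (limma adjusted p = 0.0392 and 0.0259). Lyz2 was lower with both (0.0495 and 0.0141), Cd14 (0.0315) and Mertk (0.0272) with IL4, and Csf1r (0.0183) with LPS plus IFNg. Emr1, Cd68 and Itgam passed with neither. The summed level of 9 neutrophil markers was 7.65 to 8.20 (log2) with LPS plus IFNg, 9.87 to 10.7 with IL4 and 11.04 to 11.20 without stimulus (3, 1 and 1 of the 9 at 0 in every library of the group), and that of 6 fibroblast markers was 10.2 to 11.2, 10.1 to 10.7 and 11.2 to 11.6 in the same groups. Of 7 mast cell and basophil markers, all were listed at 0 with LPS plus IFNg, Mcpt8 and Prss34 were both at 3.76 in IL4 replicate 1 (summed level 4.76), and the summed level without stimulus was -0.23 and 1.84; Mcpt4 and Cma1 were at 0 in all 8 libraries. The summed level of 6 dendritic cell markers was 4.88 to 6.06 with LPS plus IFNg, 4.99 to 6.28 with IL4 and 2.58 to 5.74 without stimulus, each group with markers listed at 0. Within this list Ccr7 was at 5.38, 4.61 and 3.88 with LPS plus IFNg and at 0 elsewhere. Zbtb46 was at 0 with LPS plus IFNg, at 4.90, 3.97 and 4.62 with IL4, and at 0 and 2.43 without stimulus. Over libraries with any marker detected, the summed level of 8 lymphocyte markers was 0.82 to 4.64, 2.56 to 5.83 and 2.24 to 4.71, and that of 5 erythroid markers was -0.27 to 4.02, 2.67 to 4.28 and 0.20 to 1.43, in the same order of groups. Cd3e, Nkg7, Hbb-b1 and Alas2 of these lists were at 0 throughout. Cd3g of the lymphocyte list was at 0 in all stimulated libraries and at 3.86 and 1.58 without stimulus (limma adjusted p = 0.0467 for LPS plus IFNg against no stimulus). S100a8, S100a9 and Ltf of the neutrophil list were lower in that comparison (adjusted p = 0.00146, 0.00448 and 0.0132), and Ccr7 was higher (0.0071). With LPS plus IFNg against IL4, S100a8, S100a9, Ltf and Zbtb46 were lower (limma adjusted p = 0.0021, 0.00677, 0.0172 and 0.00995). Ccr7, Cd14, Mertk and Fcgr1 were higher there (adjusted p = 0.00296, 0.00239, 0.000664 and 0.000497). The part of these cells in the results below was not tested, and in such bulk RNA fewer cells of a type and less RNA per cell cannot be told apart.

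Promoter sequence was matched in RefSeq (GRCm38.p6) for 4 of the genes: Ass1, Slc7a1, Odc1 and Sat1. The 250 bases before the transcription start are printed for 3 of them, because Ass1 rose with LPS plus IFNg while Slc7a1 and Odc1 did not pass in any comparison. Ass1 lies at chr2:31470020-31470269 on the plus strand, Slc7a1 at chr5:148399905-148400154 on the minus strand and Odc1 at chr12:17544623-17544872 on the plus strand. Capitals mark GC boxes (GGGCGG or CCGCCC) and E-boxes (CACGTG), which do not overlap here.
Ass1: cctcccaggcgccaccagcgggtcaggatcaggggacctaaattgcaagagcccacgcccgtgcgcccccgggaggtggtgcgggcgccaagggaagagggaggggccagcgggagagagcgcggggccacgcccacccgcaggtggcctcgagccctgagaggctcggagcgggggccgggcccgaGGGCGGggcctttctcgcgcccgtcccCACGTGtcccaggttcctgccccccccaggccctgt
Slc7a1: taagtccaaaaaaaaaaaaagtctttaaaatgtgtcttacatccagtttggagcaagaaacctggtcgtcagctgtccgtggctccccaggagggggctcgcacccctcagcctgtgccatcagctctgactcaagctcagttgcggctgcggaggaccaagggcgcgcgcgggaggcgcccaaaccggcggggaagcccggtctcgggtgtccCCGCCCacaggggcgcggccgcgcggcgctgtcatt
Odc1: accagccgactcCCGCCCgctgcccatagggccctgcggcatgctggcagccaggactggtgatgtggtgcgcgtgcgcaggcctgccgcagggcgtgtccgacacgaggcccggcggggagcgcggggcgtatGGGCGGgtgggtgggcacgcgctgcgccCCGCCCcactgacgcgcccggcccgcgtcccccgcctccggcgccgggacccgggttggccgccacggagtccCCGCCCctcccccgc
The Ass1 window held 1 GC box and 1 E-box, the Slc7a1 window 1 GC box and the Odc1 window 4 GC boxes. Of 32851 such windows in the table, 32.7% held a GC box and 6.02% an E-box. GC content was 75.6% for Ass1, 62.4% for Slc7a1 and 80.0% for Odc1, against a median of 52.4% over all windows. Neither the GAS pattern TTCNNNGAA (7.02% of all windows), the STAT6 pattern (TTC, any 4 bases, GAA; 5.85%), the interferon-stimulated response element core (GAAA, any 2 bases, GAAA; 2.98%) nor the kappaB consensus (7.25%) was found on either strand of these 3 windows, which says only that those letters are not there. A second start of Slc7a1 in the table held 1 GAS pattern and no GC box, and the Sat1 window held 2 GC boxes.

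**Figure D1:**
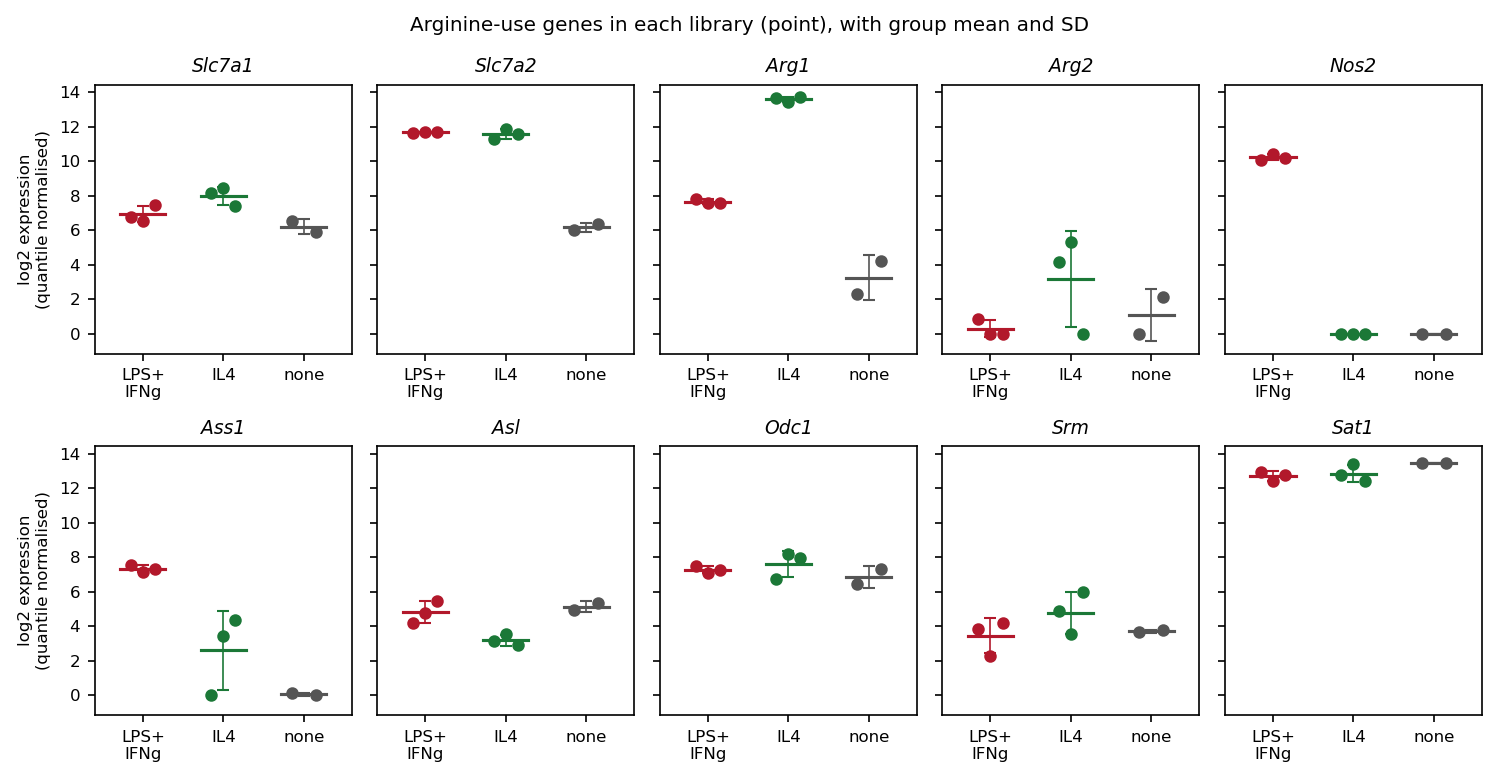
Quantile-normalised log2 expression (y axis) of the 10 arginine-use genes in each library (points) with LPS plus IFNg, IL4 or no stimulus (none); lines are group means and bars are SDs. Arg1 stands at 13.41 to 13.69 with IL4 and Nos2 at 10.06 to 10.43 with LPS plus IFNg, while Slc7a2 is at 11.30 or above in all 6 stimulated libraries.

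The first question is which of these genes each stimulus changed. Against no stimulus, 2 of the 10 rose with IL4 (Arg1 and Slc7a2) and none fell, where 1.31% of all tested genes were called, 0.514% higher and 0.793% lower. The libraries of these groups did not overlap for 5 of the 10, against 26.5% of all genes. At an unadjusted p under 0.05 there were 4, the others being Slc7a1, higher, and Asl, lower. With LPS plus IFNg, 4 of the 10 rose against no stimulus (Arg1, Slc7a2, Nos2 and Ass1) and none fell, where 7.97% of all genes were called, 3.72% higher and 4.25% lower. The libraries did not overlap for 6 of the 10, against 36.7% of all genes. Unadjusted p was under 0.05 for the same 4. Directly between the stimuli, Nos2 and Ass1 were higher and Arg1 lower with LPS plus IFNg, where 12.9% of all genes were called, 5.91% higher and 6.96% lower. The libraries did not overlap for 4 of the 10, against 27.1% of all genes. Arg2, Asl, Slc7a1, Odc1, Srm and Sat1 passed in none of the comparisons. The comparisons with no stimulus share their 2 unstimulated libraries. A gene passed at an adjusted p under 0.05 in limma, adjusted by Benjamini and Hochberg over all 13615 genes.

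Of the transporters, Slc7a2, which encodes the cationic amino acid transporter CAT2, rose with both stimuli. It was at 11.64, 11.68 and 11.66 with LPS plus IFNg, at 11.30, 11.86 and 11.58 with IL4, and at 5.99 and 6.33 without stimulus. Every stimulated library was above both unstimulated ones, and the LPS plus IFNg libraries lay within the range of the IL4 libraries. The log2 difference from no stimulus was 5.50 (SE 0.21, adjusted p = 7.87e-05) with LPS plus IFNg, a 45.3-fold change, and 5.42 (SE 0.21, adjusted p = 0.000262) with IL4, a 42.9-fold change. LPS plus IFNg and IL4 differed by 0.08 (95% interval -0.36 to 0.52, limma adjusted p = 0.86). With equal means of 11 housekeeping genes this difference was 0.52 (adjusted p = 0.103). Ranked among the 20258 genes of its own library, Slc7a2 was gene 180 to 186 with LPS plus IFNg, 150 to 253 with IL4, and 5471 and 6055 without stimulus. The counting tool was not given, so whether ranks and differences between genes, here and below, depend on transcript length is uncertain. The Slc7a2 row names 1 RefSeq transcript, and how reads of isoforms that share a 3' end were counted was not given.

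Slc7a1, the widely expressed transporter CAT1, moved far less. It was at 6.75, 6.54 and 7.43 with LPS plus IFNg, at 8.13, 8.45 and 7.41 with IL4, and at 6.50 and 5.91 without stimulus. All 6 stimulated libraries lay above the unstimulated ones, LPS plus IFNg replicate 2 narrowly, and the IL4 and LPS plus IFNg groups overlapped. Its log2 difference from no stimulus was 1.79 with IL4 (95% interval 0.80 to 2.78, limma adjusted p = 0.119) and 0.70 with LPS plus IFNg (-0.29 to 1.69, adjusted p = 0.432). Between the stimuli it was lower with LPS plus IFNg by a difference of -1.09 (-1.97 to -0.20, adjusted p = 0.117), so the order IL4, LPS plus IFNg, no stimulus was not separated by the tests. Within a library, the log2 value of Slc7a2 minus that of Slc7a1 does not depend on a shift of the whole library. It was 4.23 to 5.14 with LPS plus IFNg and 3.18 to 4.17 with IL4, against -0.52 and 0.42 without stimulus.

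**Figure D2:**
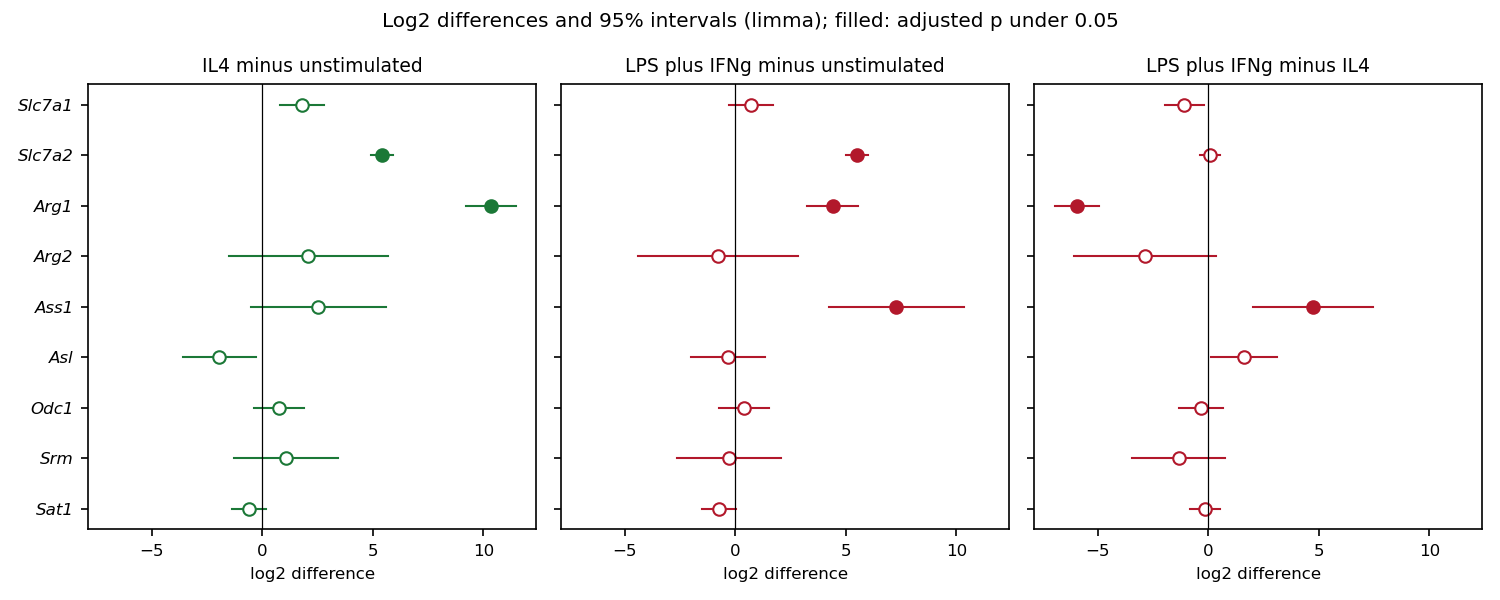
Log2 differences (x axis) between groups for 9 of the 10 genes, with 95% intervals (lines); filled points passed at an adjusted p under 0.05 in limma and open points did not. Nos2 is left out because it was listed at 0 in every IL4 and unstimulated library; Arg1 is at 10.33 for IL4 minus no stimulus and at -5.93 for LPS plus IFNg minus IL4.

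Arg1, the cytosolic arginase, separated all 3 groups. It was at 7.80, 7.57 and 7.57 with LPS plus IFNg, at 13.64, 13.41 and 13.69 with IL4, and at 2.31 and 4.19 without stimulus. No group overlapped another, and the 2 unstimulated libraries were the farthest apart. The log2 difference from no stimulus was 10.33 (SE 0.48) with IL4, the 3rd largest rise among 13615 genes, and 4.40 (SE 0.48) with LPS plus IFNg, the 169th. These have limma adjusted p = 0.000335 and 0.00287. LPS plus IFNg stood below IL4 by a log2 difference of -5.93 (SE 0.43, adjusted p = 0.000305), a 61.1-fold lower level. In its own library Arg1 ranked 3010 to 3371 with LPS plus IFNg, 26 to 34 with IL4, and 8547 and 9810 without stimulus. All 3 calls passed in each of the 16 alternative fits.

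Arg2, the mitochondrial arginase, was low and scattered. It was at 0.85, 0 and 0 with LPS plus IFNg, at 4.12, 5.31 and 0 with IL4, and at 0 and 2.14 without stimulus. Each group held at least 1 library listed at 0, and all groups overlapped. Adjusted p in limma was 0.661 for IL4 against no stimulus, 0.857 for LPS plus IFNg against no stimulus and 0.25 for LPS plus IFNg against IL4. Without IL4 replicate 3, its library at 0, the last comparison passed (log2 difference -4.43, adjusted p = 0.028; the range over leaving out each library was 0.028 to 0.464). The 3' end of Arg2 is overlapped on the opposite strand by Vti1b in the GENCODE M21 annotation. Vti1b had values of 7.68 to 9.44; the libraries are strand-specific per the labels, but whether strand was used in counting was not given in the sources used here.

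Nos2, the enzyme that makes nitric oxide from arginine, was seen with LPS plus IFNg and in neither other group. It was at 10.06, 10.43 and 10.18 with LPS plus IFNg and was listed at 0 in all 3 IL4 and both unstimulated libraries, so no fold is given. Limma's adjusted p was 0.000169 for LPS plus IFNg against IL4 and 0.000594 against no stimulus, and both calls passed in each of the 16 alternative fits. Its rank among the genes of a library was 538 to 716 with LPS plus IFNg. Of the other nitric oxide synthases, Nos3 was listed at 0 in every library and Nos1 in all but unstimulated replicate 2, where it was at 1.58. Arg1 was above 0 beside Nos2 in the same LPS plus IFNg libraries, with a within-library log2 difference, Arg1 minus Nos2, of -2.86 to -2.26.

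The enzymes that rebuild arginine from citrulline did not move together. Ass1, which joins citrulline to aspartate, was at 7.54, 7.16 and 7.31 with LPS plus IFNg, at 0, 3.41 and 4.36 with IL4, and at 0.11 and 0 without stimulus. The LPS plus IFNg libraries lay above all others, and IL4 replicate 1 was listed at 0 like unstimulated replicate 2. The log2 difference was 7.28 (SE 1.30, limma adjusted p = 0.0159) for LPS plus IFNg against no stimulus, 4.75 (SE 1.16, adjusted p = 0.0374) for LPS plus IFNg against IL4 and 2.53 (SE 1.30, adjusted p = 0.495) for IL4 against no stimulus. The SEs come from a spread shared by all groups, to which the IL4 libraries contributed most. The call against no stimulus no longer passed when LPS plus IFNg replicate 1, 2 or 3 was left out (adjusted p = 0.0506, 0.0522 and 0.0504), nor without unstimulated replicate 1 or 2 (0.0875 and 0.120), with log2 differences of 7.18 to 7.37. The call against IL4 did not pass without IL4 replicate 2 (0.0573) or without any 1 library of the other groups (0.077 to 0.103).

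Asl, which splits argininosuccinate into arginine and fumarate, was at 4.18, 4.78 and 5.44 with LPS plus IFNg, at 3.13, 3.52 and 2.89 with IL4, and at 4.91 and 5.35 without stimulus. IL4 libraries were below those of both other groups, which overlapped each other. The log2 difference was -1.95 for IL4 against no stimulus (95% interval -3.60 to -0.29, limma adjusted p = 0.318), 1.62 for LPS plus IFNg against IL4 (0.14 to 3.10, adjusted p = 0.164) and -0.33 for LPS plus IFNg against no stimulus (-1.99 to 1.33, adjusted p = 0.874). With no intensity trend in the fit, Asl passed between the stimuli (adjusted p = 0.0467; 0.137 to 0.352 with a library left out). Ass1 minus Asl within a library was 1.87 to 3.36 with LPS plus IFNg, -0.11 and 1.47 in the 2 IL4 libraries where Ass1 was above 0, and -4.79 in the 1 such unstimulated library. The other urea cycle genes of the list, Cps1 and Nags, were listed at 0 throughout, and Otc was at -1.16 in unstimulated replicate 1 and at 0 elsewhere.

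**Figure D3:**
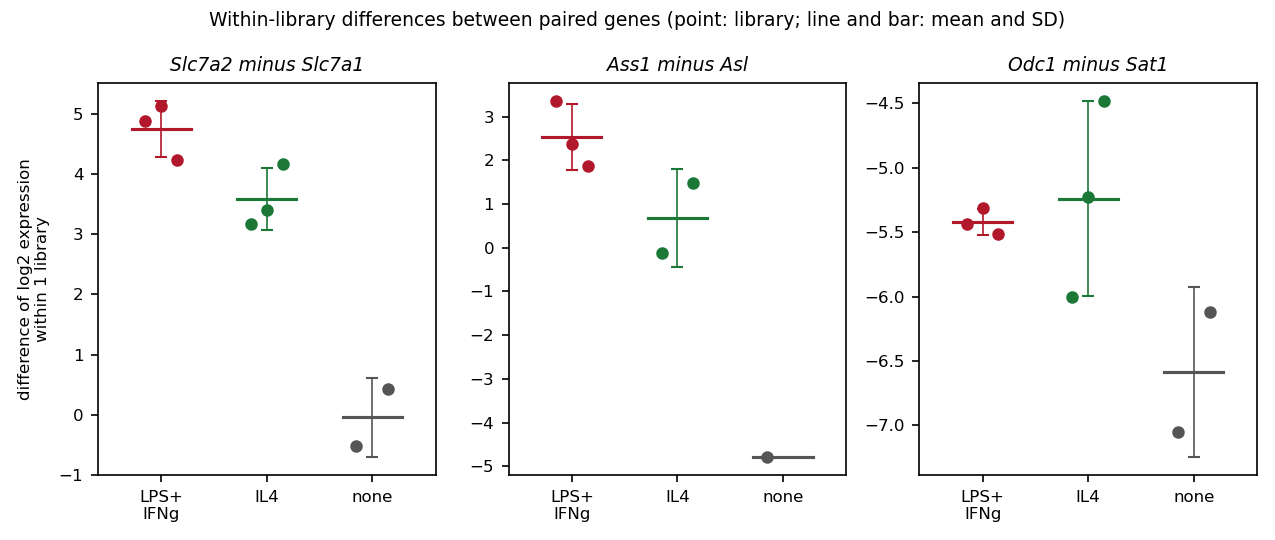
Within-library differences of log2 expression (y axis) for Slc7a2 minus Slc7a1, Ass1 minus Asl and Odc1 minus Sat1 in each library (points) with LPS plus IFNg, IL4 or no stimulus (none); libraries with a gene listed at 0 are left out, lines are means and bars are SDs. Slc7a2 minus Slc7a1 is 3.18 or more in the 6 stimulated libraries, against -0.52 and 0.42 without stimulus.

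The polyamine genes among the 10 passed in no comparison. Odc1, ornithine decarboxylase, which makes putrescine from ornithine, was at 7.51, 7.09 and 7.23 with LPS plus IFNg, at 6.73, 8.16 and 7.93 with IL4, and at 6.41 and 7.32 without stimulus. The groups overlapped, and IL4 replicate 1 was below all LPS plus IFNg libraries while the other IL4 libraries were above them. The log2 difference from no stimulus was 0.74 with IL4 (95% interval -0.39 to 1.87) and 0.41 with LPS plus IFNg (-0.72 to 1.54), with limma adjusted p = 0.598 and 0.71. Between the stimuli the difference was -0.33 (-1.34 to 0.69, adjusted p = 0.684). On the authors' normalisation, a change of Odc1 greater than 4-fold, 2 on the log2 scale, lies outside each of these intervals. Over the 16 alternative fits, the difference from no stimulus ranged from 0.29 to 1.19 with IL4 and from -0.04 to 1.01 with LPS plus IFNg. Intervals of those fits are not given here.

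Srm, spermidine synthase, was at 3.84, 2.28 and 4.18 with LPS plus IFNg, at 4.85, 3.52 and 5.95 with IL4, and at 3.64 and 3.76 without stimulus. The groups overlapped, and its intervals were wide: 1.07 (-1.28 to 3.42) for IL4 and -0.27 (-2.62 to 2.08) for LPS plus IFNg, each against no stimulus, and -1.34 (-3.44 to 0.76) between the stimuli. Sat1, the acetyltransferase that tags spermidine and spermine for export or oxidation, was at 12.95, 12.40 and 12.75 with LPS plus IFNg, at 12.73, 13.39 and 12.41 with IL4, and at 13.47 and 13.44 without stimulus. Both unstimulated libraries lay above all 6 stimulated ones, a pattern of no overlap that 36.7% of all genes showed for LPS plus IFNg and 26.5% for IL4. Its log2 difference from no stimulus was -0.75 with LPS plus IFNg (-1.53 to 0.02, limma adjusted p = 0.275) and -0.61 with IL4 (-1.38 to 0.17, adjusted p = 0.517). Odc1 minus Sat1 within a library was -5.51 to -5.31 with LPS plus IFNg and -6.00 to -4.49 with IL4, against -7.05 and -6.12 without stimulus.

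A wider list of 50 genes around arginine, holding these 10, had 44 genes tested. Another 5 (Nos3, Cps1, Nags, Agmat and Gchfr) were listed at 0 in every library, and Oaz2 was not used here. Of the 34 tested genes beyond the 10, 1 rose with IL4 against no stimulus and none fell, beside 0.514% of all genes called higher and 0.793% lower. With LPS plus IFNg against no stimulus 3 fell and none rose, beside 4.25% lower and 3.72% higher over all genes. Between the stimuli 1 was higher and 7 lower with LPS plus IFNg, beside 5.91% and 6.96% over all genes. The median log2 difference of the 44 was 0.34 for IL4 and -0.26 for LPS plus IFNg, each against no stimulus, and -0.33 for LPS plus IFNg against IL4, beside -0.01, -0.04 and 0 over all genes. With equal means of 11 housekeeping genes the LPS plus IFNg medians became 0.34 and 0.11, and those of all genes moved by 0.60 and 0.44.

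The creatine branch, which also spends arginine, held the largest passing differences among these 34 genes. Gatm, the amidinotransferase that passes arginine's amidino group to glycine, was at 9.52, 9.44 and 9.67 with LPS plus IFNg, at 12.80, 12.68 and 12.24 with IL4, and at 10.98 and 11.27 without stimulus. No group overlapped another. It fell with LPS plus IFNg (log2 difference -1.59, SE 0.22, limma adjusted p = 0.0068) and rose with IL4 (1.44, SE 0.22, adjusted p = 0.0324), and was lower with LPS plus IFNg than with IL4 (-3.03, SE 0.20, adjusted p = 0.000244). The rise with IL4 passed in 6 of 16 alternative fits, with adjusted p up to 0.157, and the fall with LPS plus IFNg did not pass without unstimulated replicate 2 (0.0523). Gamt, which methylates the product of Gatm into creatine, was at 0 in each of the 3 LPS plus IFNg libraries, against 5.63, 4.78 and 4.74 with IL4 and 3.84 and 5.04 without stimulus (adjusted p = 0.00483 and 0.0185). The second of these no longer passed when LPS plus IFNg replicate 2 (0.0529) or 3 (0.0502) was left out. Genes listed at 0 numbered 2964 to 2985 per library with LPS plus IFNg, 3204 to 3568 with IL4, and 1577 and 2588 without stimulus. Depth is unknown, and its part in the zeros of Gamt was not tested.

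Around nitric oxide synthase, Gch1, GTP cyclohydrolase, which starts the making of its cofactor tetrahydrobiopterin, was at 7.30, 7.27 and 7.53 with LPS plus IFNg, at 5.30, 5.14 and 4.74 with IL4, and at 5.34 and 7.01 without stimulus. It was higher with LPS plus IFNg than with IL4 (log2 difference 2.30, SE 0.46, limma adjusted p = 0.0177), though not without any 1 LPS plus IFNg library (up to 0.0634). Against no stimulus its differences were 1.19 with LPS plus IFNg (adjusted p = 0.271) and -1.12 with IL4 (adjusted p = 0.461), with the unstimulated libraries far apart. Pts, Spr and Qdpr, the other cofactor genes measured, passed in no comparison. Ddah2, which breaks down methylated arginine that inhibits nitric oxide synthases, was at 3.64, 2.03 and 0 with LPS plus IFNg and at 5.72, 5.26 and 4.50 with IL4 (adjusted p = 0.0863). Ddah1, of the same kind, was at 0 in 2 of 3 IL4 libraries and at 4.27 and 3.26 without stimulus (adjusted p = 0.638).

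**Figure D4:**
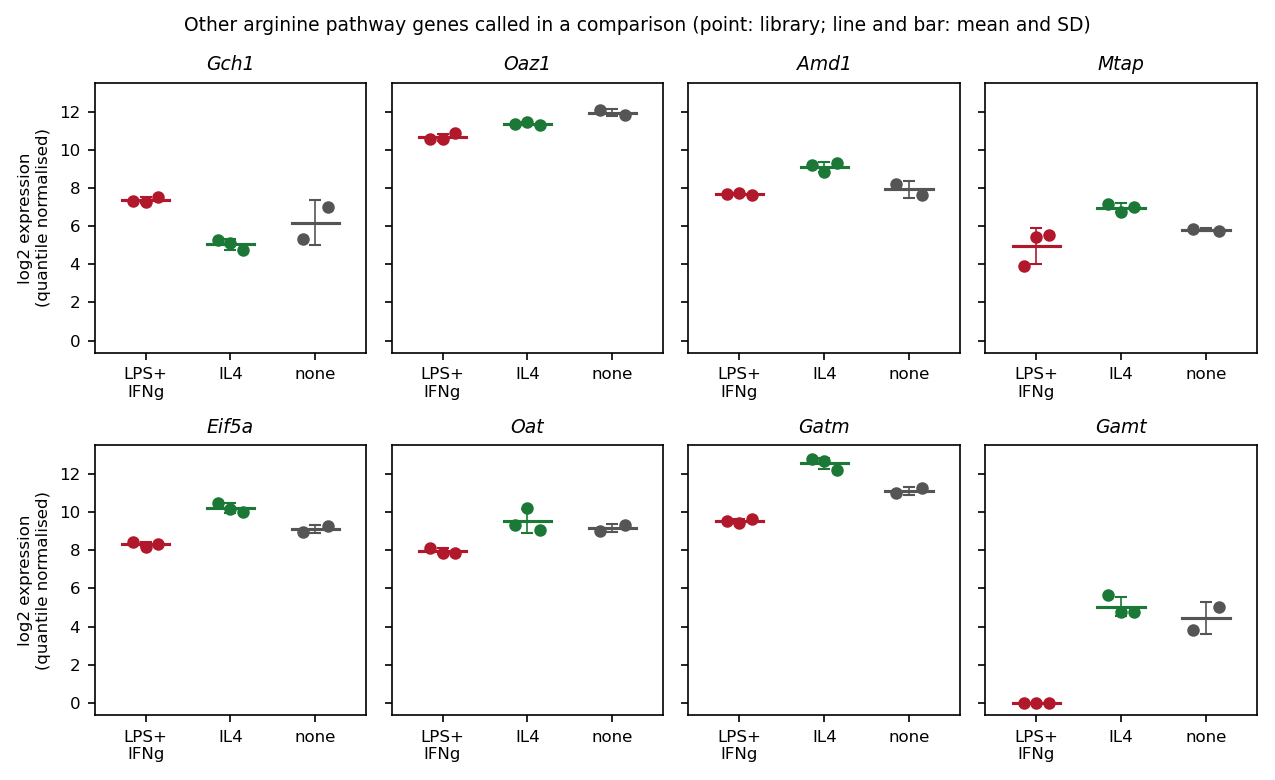
Quantile-normalised log2 expression (y axis) of the 8 other genes of the arginine list that passed in any comparison, in each library (points) with LPS plus IFNg, IL4 or no stimulus (none); lines are group means and bars are SDs. All but Gch1 are lower with LPS plus IFNg than with IL4, and Gamt stands at 0 in the 3 LPS plus IFNg libraries.

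Downstream of ornithine, 3 of 8 tested genes of polyamine synthesis and its control, 0 of 3 of polyamine breakdown, 1 of 3 of hypusine synthesis and use and 1 of 6 of the route to proline and glutamate passed between the stimuli. All 5 were lower with LPS plus IFNg, where 12.9% of all genes were called and 6.96% were lower. Amd1, whose product supplies the aminopropyl groups of spermidine and spermine, was at 7.69, 7.73 and 7.62 with LPS plus IFNg and at 9.22, 8.83 and 9.32 with IL4 (log2 difference -1.44, limma adjusted p = 0.00646). Eif5a, the translation factor that carries hypusine, a residue made from spermidine, was at 8.43, 8.20 and 8.33 with LPS plus IFNg and at 10.49, 10.15 and 10.01 with IL4 (-1.90, adjusted p = 0.00103). The Amd1 and Eif5a calls passed in all 16 alternative fits. Without stimulus Amd1 was at 8.24 and 7.63 and Eif5a at 8.98 and 9.27. The IL4 libraries lay above the unstimulated ones for both genes (adjusted p = 0.084 and 0.0608). For Eif5a the LPS plus IFNg libraries also lay below the unstimulated ones (log2 difference -0.80, limma adjusted p = 0.0634). With housekeeping scaling that difference was -0.20. Against no stimulus, 26.5% of all genes showed no overlap with IL4 and 36.7% with LPS plus IFNg.

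Oat, the mitochondrial aminotransferase that sends ornithine towards proline and glutamate, was at 8.13, 7.86 and 7.84 with LPS plus IFNg and at 9.33, 10.22 and 9.05 with IL4 (log2 difference -1.59, limma adjusted p = 0.0157, and 0.0142 to 0.0562 with a library left out, not passing when LPS plus IFNg replicate 2 or 3 was left out, nor without unstimulated replicate 2). Without stimulus Oat was at 9.01 and 9.32. Mtap, which salvages a by-product of polyamine synthesis, was at 5.86 and 5.74 without stimulus. It was at 3.89, 5.44 and 5.56 with LPS plus IFNg and at 7.18, 6.73 and 7.03 with IL4. Its call (-2.02, adjusted p = 0.0406) passed in 7 of 16 alternative fits, with adjusted p up to 0.117. Oaz1, antizyme, which binds ornithine decarboxylase and sends it for degradation, was at 10.55, 10.57 and 10.88 with LPS plus IFNg, at 11.36, 11.46 and 11.29 with IL4, and at 12.08 and 11.83 without stimulus. It was lower with LPS plus IFNg than without stimulus (-1.29, adjusted p = 0.00734; -0.69 and 0.0807 with housekeeping scaling) and than with IL4 (-0.70, adjusted p = 0.034, passing in 7 of 16 alternative fits, with adjusted p up to 0.369). Oaz1 has an annotated pseudogene and Amd1 a near-identical copy, Amd2, so their levels are uncertain where reads were shared. Slc25a15, the mitochondrial ornithine carrier, Dohh, the last enzyme of hypusine synthesis, and the transporter subunit Slc7a6 had, with Ddah1 and Ddah2, the largest differences among those of the 34 genes that passed in no comparison, at adjusted p = 0.431, 0.414 and 0.482.

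Genes whose pattern was closest to those of 4 of the genes were found among 9722 genes with a highest value of at least 5, by Euclidean distance of mean-centred log2 values over the 8 libraries. Closest to Arg1 were Cish (distance 3.34), Ccl22 (5.01) and 4833422F24Rik (5.24). Cish had means of 4.58 with LPS plus IFNg, 8.94 with IL4 and 1.22 without stimulus, so it had the same order of groups over a narrower range. Closest to Nos2 were Clic5 (1.29), Slfn4 (1.55) and Cxcl11 (1.56), of which Clic5 and Cxcl11 were listed at 0 in all IL4 libraries. Slc7a2 was nearest to Pcca (2.28), P4ha2 (2.35) and Plcd1 (2.41), and Ass1 to Batf2 (1.22), 1700123I01Rik (2.33) and Cd40 (3.30). Without stimulus Pcca, P4ha2 and Plcd1 had means of 0.41, 0.57 and 0.46, beside 6.16 for Slc7a2. Pcca, P4ha2 and Plcd1 thus rose from near 0, and the size of such a rise is uncertain. Batf2 had means of 7.69 with LPS plus IFNg, 2.61 with IL4 and 0.39 without stimulus.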

How the data were processed

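Oligo-dT beads captured the mRNA, and PCR amplified strand-specific libraries of its 3' ends with no molecular identifiers described, per the labels' protocols. TopHat and mm9 are named in the submitters' processing notes; the counting tool was not given in the sources used here. The table the authors deposited holds log2 values, quantile normalised going by its name, for 20259 RefSeq rows in 8 library columns, matched to samples by barcode. Quantile normalisation can mask a global shift in RNA, and depth is unknown. The 1 row without a symbol and 6643 genes with the same value in every library were left out, leaving 13615.

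All 8 libraries entered 1 fit in limma 3.58.1 (R 4.3.3), with group means and an intensity trend (5 residual and 2.31 prior degrees of freedom), and tested on simulated data. Tests were two-sided. The 10 genes, the list of 50 and the tests were chosen with earlier results of these data known. Beyond the 10, genes of the list past the threshold in any comparison and the 5 others with the largest differences were named, and the 3 nearest patterns for 4 genes. Alternatives were 7 other settings, a block for replicate number, and leaving out each of 8 libraries. Promoters came from RefSeq on GRCm38.p6; no mm9 coordinates are printed.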

Additional observations from a re-analysis of the deposited data

How the results depend on the processing

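Of 192 recomputed counts of called genes, 177 stayed within 1.5 times the reported count, as did the calls and directions of 435 of 461 recomputed single-gene differences. Both totals of unchanged results include those that passed in neither fit, such as counts of 0 in both. Of the calls among the 10 genes, those of Ass1 were lost in some alternative fits. With no intensity trend, 5 genes of the list of 50 were higher with LPS plus IFNg than with IL4 in place of 3. Leaving out each library in turn gave 1 to 2 of the 10 genes higher and 1 to 2 lower between the stimuli, 1 to 4 of the list higher and 5 to 8 lower, and 0 to 1 of the list lower with IL4 against no stimulus. Directions turned, without passing, with housekeeping scaling for Asl (0.27) and Srm (0.33) in LPS plus IFNg against no stimulus and for Odc1 (0.12) and Sat1 (0.30) in LPS plus IFNg against IL4. With a library left out, log2 differences ranged across 0 for Slc7a2 (-0.061 to 0.22) and Sat1 (-0.36 to 0.13) between the stimuli, and for Srm (-0.64 to 0.31), Odc1 (-0.039 to 0.86) and Arg2 (-1.86 to 0.28) in LPS plus IFNg against no stimulus. The cause was not tested. Deviations of same-numbered libraries had Pearson's r across genes of -0.05 to 0.03, and those of differently numbered ones -0.03 to 0.03. Many genes are near 0, and the 2 unstimulated libraries deviate as mirror images. These correlations therefore cannot decide whether the numbers pair the libraries. With the replicate block, Ass1 did not pass against no stimulus (adjusted p = 0.0645) or against IL4 (0.0709), which left 1 of the 10 higher between the stimuli, and Arg2 turned to 0.071 in LPS plus IFNg against no stimulus. Also not passing with the block were Gamt in LPS plus IFNg against no stimulus (0.0948), Gatm in IL4 against no stimulus (0.157), and Mtap (0.0865) and Oaz1 (0.0931) in LPS plus IFNg against IL4. The size of differences that involve values listed at 0, as for Arg2 and Ass1, is uncertain, and depth is unknown.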
